A study of Mus musculus with 14 samples.

Results

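The 6001 sites described here were bound by RUNX1 in Chd7-knockout (KO) erythroblasts and carried no RUNX1 peak in wild-type (WT) cells and no GATA2 peak in either genotype. All peaks of the 4 single-library lists (GATA2 and RUNX1, each in KO and in WT) were merged into union sites wherever they overlapped by 1 bp or more. A site was kept when it held a peak of the KO RUNX1 list and of no other list. The rule left 6001 of 110132 union sites (5.45%), each made of 1 KO RUNX1 peak. They are 17.0% of the 35281 peaks in the KO RUNX1 list. The number depends on the merging: joining peaks up to 1 kb apart left 2454 sites, and RUNX1 lists of equal length left 3153.

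The study used chromatin immunoprecipitation and sequencing in G1ER cells, a mouse erythroblast line that lacks GATA1 and carries an estrogen-inducible form of it. Cells of genotype Chd7-/- were set against wild-type cells, with 1 library for RUNX1 and 1 for GATA2 in each genotype. RNA polymerase II phosphorylated on serine 2 of its tail repeat (S2P), the elongating form, gave 1 peak list per genotype, named for 2 replicates. Cells were grown with erythropoietin and stem cell factor medium, and differentiation by beta-estradiol was scored after 48 hours, but the labels do not say whether the chromatin was taken with or without it. They also do not say whether the KO line was a single clone. Input libraries were sequenced in 6 samples and were not used here. With 1 library per factor and genotype, a difference between KO and WT has no replicate check and gets no p-value, and all intervals below are exact 95% intervals that cover counting error only.

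RUNX1 is the DNA-binding subunit of core binding factor. It pairs with CBFB, recognises the short core sequence TGTGGT, and often binds beside GATA, ETS and TAL1 factors at blood-cell enhancers and promoters. In red cell development it is known for roles in stem and progenitor cells and in megakaryocytes, and its level falls as erythroid cells mature. CHD7 is an ATP-dependent chromatin remodeler of the chromodomain helicase family, and GATA2 is the GATA factor of progenitors that GATA1 replaces during erythroid maturation.

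Promoter sequence shows what lies under some of these summits. Stretches around 7 summits follow on the coding strand, 5′ to 3′, from RefSeq (GRCm38.p6), each covering up to 60 bases on either side of the summit and at most 30 bases past the gene start. Capitals mark the RUNX core (TGTGGT), its variant (TGCGGT), the ETS core (CCGGAA) and the GATA core (AGATAA) on either strand. Mrps5, Brap, Lysmd4 and Eda2r are among the 12 strongest sites at gene starts, Cdkn1a is the cell-cycle inhibitor gene with the strongest site of its list, and Inpp5e and Il18r1 were chosen after their values were seen, as strong sites with a RUNX core near the summit.
Mrps5: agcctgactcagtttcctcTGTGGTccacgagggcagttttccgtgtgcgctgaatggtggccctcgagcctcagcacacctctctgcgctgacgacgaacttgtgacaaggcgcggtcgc
Brap: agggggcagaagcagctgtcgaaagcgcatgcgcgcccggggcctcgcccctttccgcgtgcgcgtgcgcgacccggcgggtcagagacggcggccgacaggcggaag
Lysmd4: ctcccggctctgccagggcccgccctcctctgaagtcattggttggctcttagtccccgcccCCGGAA
Eda2r: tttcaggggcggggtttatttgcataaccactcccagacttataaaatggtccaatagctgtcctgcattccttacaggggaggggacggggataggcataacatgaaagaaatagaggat
Cdkn1a: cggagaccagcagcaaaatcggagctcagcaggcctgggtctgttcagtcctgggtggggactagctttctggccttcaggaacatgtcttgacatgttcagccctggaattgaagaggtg
Inpp5e: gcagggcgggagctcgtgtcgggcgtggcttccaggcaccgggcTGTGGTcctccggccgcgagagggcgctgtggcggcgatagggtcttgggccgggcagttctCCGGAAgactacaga
Il18r1: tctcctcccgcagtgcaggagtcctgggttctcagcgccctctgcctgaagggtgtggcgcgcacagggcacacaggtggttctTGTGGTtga
The Mrps5 stretch is chr2:127587239-127587359 (plus strand), the Brap stretch chr5:121660485-121660592 (plus), the Lysmd4 stretch chr7:67222506-67222573 (plus) and the Eda2r stretch chrX:97377187-97377307 (minus). The Cdkn1a stretch is chr17:29090848-29090968 (plus), the Inpp5e stretch chr2:26409199-26409319 (minus) and the Il18r1 stretch chr1:40465558-40465650 (plus). The RUNX core begins 41 bp upstream of the summit at Mrps5, 16 bp upstream at Inpp5e and 24 bp downstream at Il18r1. An ETS core lies 2 bp downstream of the Lysmd4 summit, and the Brap, Eda2r and Cdkn1a stretches hold none of the 4 cores.

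Promoter windows of 300 bp (250 bases before the gene start to 50 after it) held the summit of a KO-only site without GATA2 in 687 cases, belonging to 631 genes. These windows were rich in G and C, with a median of 62.0%, against 62.7% in the 4784 windows with a stable RUNX1 site without GATA2 (a RUNX1 peak in both genotypes) and 56.3% in all 21262 windows. The RUNX core TGTGGT was found in 9.61% (7.51 to 12.1) of the windows with a KO-only site, in 11.9% of the windows with a stable site and in 3183 of all 21262 windows, a larger share than either. The variant TGCGGT was in 6.99% (5.20 to 9.16) of the windows with a KO-only site, 11.9% of those with a stable site and 7.44% of all. Either form was present in 15.6% (12.9 to 18.5), 22.8% and 21.6% of these same 3 groups of windows. The RUNX core was thus no more common in promoter windows that held a KO-only summit than in all promoter windows. Its distance to the summit did not enter this count.

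The ETS core CCGGAA was found in 35.2% (31.7 to 38.9) of windows with a KO-only site, 39.3% of windows with a stable site and 18.7% of all windows, so that both kinds of RUNX1-bound promoter held it more often than promoters at large. The NRF1 core TGCGCA was in 15.9% (13.2 to 18.8), 18.0% and 9.74%. The GATA core AGATAA was in 3.20% (2.02 to 4.81), 3.41% and 9.65%, and the AP-1 sequence TGANTCA in 3.93%, 3.62% and 6.99%. The SP/KLF box GGGCGG was in 59.1% of the windows with a KO-only site, fewer than the 76.8% with a stable site and more than the 46.2% of all windows. The NF-Y sequence CCAAT was in 206 of the 687 windows with a KO-only site (interval 26.6% to 33.6%), below both the 46.3% with a stable site and the 38.2% of all. All motifs were searched on both strands, windows of neighbouring starts can overlap, and base composition moves with these shares: its part in them was not tested. A match is a string of letters and not a measured contact.

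The rule itself rests on peak calls, and its outcome is given as a description. Among union sites with a RUNX1 peak, 27.2% had one in KO only and 9.87% in WT only. Of the 10416 KO-only RUNX1 sites, 57.6% had no GATA2 peak in either genotype, and of the 3780 WT-only RUNX1 sites, 43.7% (1650 sites) had none. The WT RUNX1 list holds 28952 peaks, fewer than the KO list.

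The KO-only sites without GATA2 were weak. The number of KO RUNX1 fragments stacked at each summit, recovered from the deposited fold enrichment and p-value, had a median of 22 (quartiles 17 and 29, range 7 to 262) over a local background of 4.61 fragments. Stable RUNX1 sites without GATA2 had a median of 56 KO fragments. KO-only RUNX1 peaks at stable GATA2 sites had 21, and WT-only RUNX1 sites without GATA2 had 19 WT fragments. The median peak was 189 bp wide at the KO-only sites and 369 bp at the stable ones, and the median fold enrichment was 4.08 and 6.44 in the same order. Local background reached 190 fragments at the KO-only sites, so a high stack is not by itself a strong peak.

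**Figure D1:**
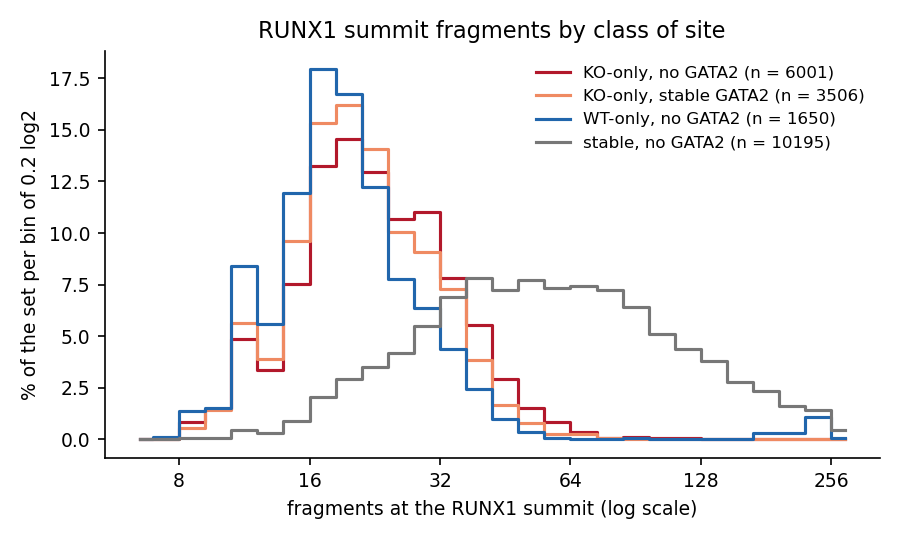
Distribution of fragments at the RUNX1 summit (x axis, log scale) as percent of each set per bin of 0.2 log2 units (y axis), with KO fragments for the KO-only and stable sets and WT fragments for the WT-only set. The 3 sets called in a single genotype lie around 19 to 22 fragments, and the stable set lies around 56.

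When the KO RUNX1 list was cut into 10 equal classes by its −log10 q, the KO-only sites without GATA2 made up 48.9% of the weakest class, 16.4% of the fifth, 2.81% of the seventh and 1 peak of the strongest. Of all 6001 sites, 70.5% fell in the weakest 3 classes, 93.3% in the weakest 5 and 16 in the strongest 3. The weakest members, with −log10 q of 1.31, had 28, 21 and 21 fragments, at chr1:84840186-84840350, chr11:97511356-97511559 and chr1:151182182-151182322. The nearest sites outside the rule were stable sites whose WT peak only just passed, with WT −log10 q of 1.37, 1.37 and 1.39 and KO fragments of 17, 22 and 26.

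How far a site stood above the WT calling limit was computed from the weakest p-value in the WT list, the background at the site and the depth of the WT list relative to the KO list (0.984). A median of 14 fragments would have sufficed for a WT call at these sites. The KO fragments, scaled to WT depth, were a median of 1.54 times that number (quartiles 1.31 and 1.83). They were under 1.5 times the limit at 45.4% of sites, at 2 or more times it at 16.5% and at 3 or more times it at 91 sites (1.52%). The WT fragments at these places are not in the peak lists, so a moderately lower WT signal cannot be told apart from no WT signal at most of the sites.

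Stable RUNX1 sites without GATA2 show how the same signal compared where both genotypes had a peak. Their KO over WT fragment ratio had a median log2 of 0.24 at 9720 sites with 1 peak in each list. At the 1453 of them whose KO summits lay between 17 and 29 fragments, the median log2 ratio was 0.03. These 1453 sites had to pass the WT call and were picked for low KO summits, so the choice of sites partly fixes this ratio.

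**Figure D2:**
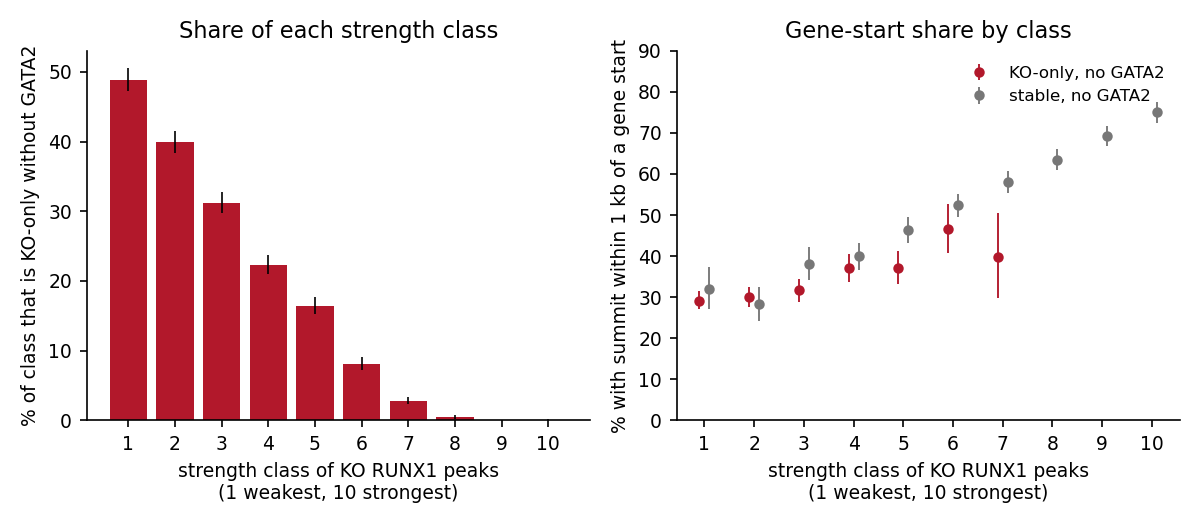
Left, percent of each of 10 equal strength classes of KO RUNX1 peaks (x axis, weakest to strongest) that are KO-only without GATA2. Right, percent of KO-only and of stable sites without GATA2 with a summit within 1 kb of a gene start in each class holding 20 or more sites; bars are exact 95% intervals. The share on the left falls from 48.9% in class 1 to near 0 in classes 8 to 10, and on the right the KO-only sites lie at 29.1% in class 1 and 46.6% in class 6.

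The strongest site was in Hs2st1, which encodes a heparan sulfate sulfotransferase. Its peak at chr3:144551379-144551813 had 104 KO fragments (85.0 to 126) over a background of 4.22, and 13 would have sufficed for a WT call. It is the single member in the strongest class, it lay 7.69 kb from the nearest WT RUNX1 peak, and no S2P peak covered it in either genotype. Mrps5, a protein of the small mitochondrial ribosomal subunit, came next with 88 fragments (70.6 to 108) over 12.3 at chr2:127587062-127587409, 127 bp upstream of its start. Galnt7, an enzyme that adds sugars to serines and threonines, followed with 58 fragments over 4.87 inside the gene. A site 4951 bp from Smim17 had 68 over 7.68.

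The other strongest sites were spread over genes of varied functions. Ankrd40 had 49 fragments (36.3 to 64.8) over a background of 3.25, 18 bp upstream of its start. The start shared by Acad10, an acyl-CoA dehydrogenase family member, and Brap, a ubiquitin ligase of Ras signalling, had 84 fragments (67.0 to 104) over 13.0. Npm1, the nucleolar chaperone nucleophosmin, had 47 over 3.07 inside the gene, and Tsr1, a factor of small-subunit ribosome assembly, had 68 over 9.21 at 68 bp past its start. Gtf2i, a transcription factor gene, and Polb, the repair DNA polymerase beta, had 49 and 60 fragments at 821 bp and 22 bp outside their gene bodies. Abi2, a regulator of actin, had 70 over 9.21 at only 119 bp from a WT RUNX1 peak, whereas the Polb site was 48.0 kb from one. Across these strongest sites the fragments were between 3.04 (Tsr1) and 7.87 (Hs2st1) times the WT calling limit.

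KO-only sites without GATA2 were at gene starts less often than stable sites and somewhat more often than all KO RUNX1 peaks. Summits lay within 1 kb of a gene start at 1910 of 5848 sites (32.7%, 31.5 to 33.9; chromosome 18, which has no starts in the table used, was left out). The share was 26.9% for all KO RUNX1 peaks and 26.6% for all WT RUNX1 peaks. It was 55.6% for stable RUNX1 sites without GATA2, 7.72% for KO-only RUNX1 peaks at stable GATA2 sites and 14.9% for WT-only RUNX1 sites without GATA2. Starts were on record for 17491 of the 21883 protein-coding genes (79.9%). A site at a start not on record counts as away from starts in every set. Start share rises with strength in this list, and within classes the KO-only and stable sites were closer, at 29.1% and 32.1% in class 1 and at 415 of 1382 and 137 of 484 sites (28.3%) in class 2. In class 5 they were 37.1% (33.1 to 41.2) and 46.4% (43.3 to 49.6), and in class 7 39.8% and 58.1%.

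The KO-only sites were also more often at starts than their WT-only counterparts, at like fragment numbers of 15 or more. With under 15 fragments the shares were 9.09% (7.22 to 11.3) for KO-only and 8.38% (5.68 to 11.8) for WT-only sites, whose intervals overlap. With 15 to 19 fragments they were 21.4% and 13.3%, with 20 to 29 fragments 37.5% (35.5 to 39.6) and 17.0%, and with 30 or more 48.6% and 24.7%. Local background had a median of 4.61 fragments at KO-only and 3.55 at WT-only sites, and reached 190 and 203. The median fold enrichment was 4.08 and 4.42 in the same order, so like fragment numbers are not always like peak strengths. Away from RUNX1 peaks of the other genotype (over 1 kb), the start shares were 21.7% and 8.66%. This is a comparison of 2 libraries, and a difference between them in background at open promoters cannot be told apart from the genotype.

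Most of the sites were inside genes. A summit lay in a protein-coding gene at 64.4% of the KO-only sites without GATA2 and at 54.9% of the stable ones. These shares include sites at gene starts, whose number and side of the start differ between KO-only and stable sites. The summit was over 5 kb from any gene at 17.0% of the KO-only and 9.73% of the stable sites. Chromosome 5 held 482 of the 6001 sites (8.03%). It held 8.01% of KO-only RUNX1 peaks at stable GATA2 sites, 6.62% of stable sites and 4.48% of WT-only sites. The 482 sites were 19.4% of the KO RUNX1 peaks on chromosome 5. Leaving chromosome 5 out gave a start share of 32.4%. On other chromosomes the sites were between 15.2% (chromosome 12) and 19.1% (chromosome 15) of the KO RUNX1 peaks, apart from chromosome Y, where they were 15 of 36 peaks.

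Many of the sites lay close to a RUNX1 peak of WT cells. The nearest WT RUNX1 peak was at most 500 bp away for 26.5% of them and at most 1 kb away for 37.8%, with a median gap of 2386 bp (quartiles 461 and 12644). For the WT-only sites without GATA2, the nearest KO RUNX1 peak was at most 500 bp away in 16.5% and at most 1 kb away in 25.3%. Another KO RUNX1 peak lay within 1 kb of 49.2% of the KO-only sites, and a KO GATA2 peak within 1 kb of 32.1%. At the other end, 878 sites (14.6%) had no other peak of the 4 lists within 5 kb.

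**Figure D3:**
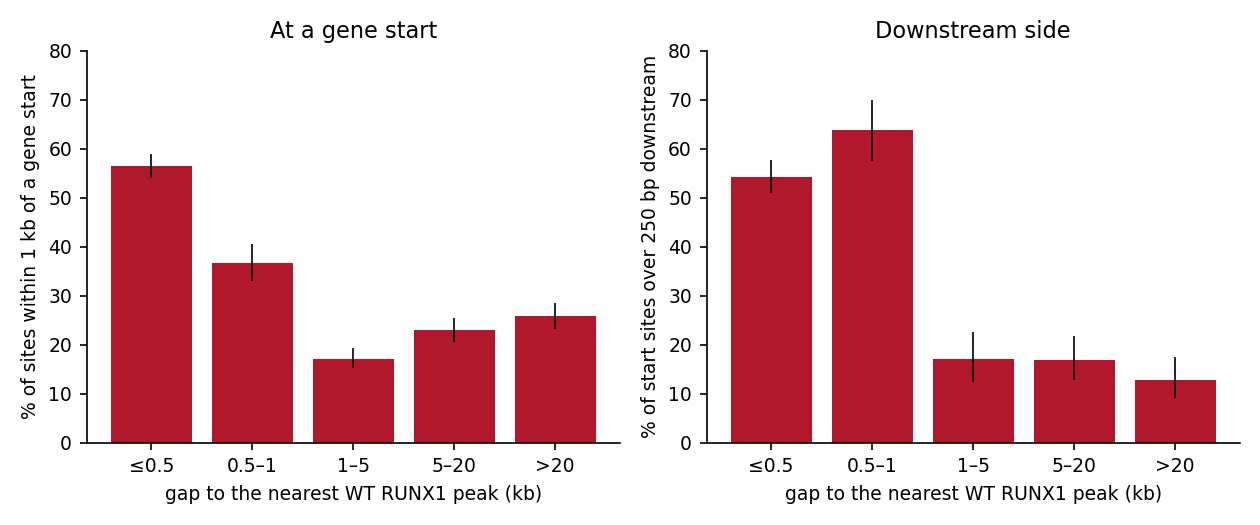
KO-only RUNX1 sites without GATA2 grouped by their gap to the nearest WT RUNX1 peak (x axis, kb). The left panel gives the percent with a summit within 1 kb of a gene start and the right panel the percent of those start sites that lie over 250 bp downstream, with exact 95% intervals; both are highest within 1 kb of a WT peak.

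The gap to a WT peak split the gene-start sites. Within 500 bp of a WT RUNX1 peak, 56.5% of 1553 sites were at a gene start, and 54.3% of these lay over 250 bp downstream of it. At gaps of 1 to 5 kb the start share was 17.2%, at 5 to 20 kb 23.0% and over 20 kb 25.8%. In these 3 outer groups 12.9% to 17.1% of start sites lay over 250 bp downstream, and 72.8% to 79.5% lay within 250 bp of the start.

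The same split appeared when starts were sorted by whether a WT RUNX1 peak lay within 1 kb of the start. At the 1106 KO-only sites that shared their start with a WT peak, 57.1% of summits were over 250 bp downstream, 20.4% over 250 bp upstream and 22.5% within 250 bp. At the 804 whose start had no WT peak, 15.5% were over 250 bp downstream, 9.33% over 250 bp upstream and 75.1% within 250 bp. Stable sites without GATA2 had 8.92% downstream, 8.11% upstream and 83.0% within 250 bp, with a median position 46 bp upstream. A KO-only site cannot overlap a WT peak, so its position at a start that holds one is partly fixed by the rule, and how far this sets the side was not tested. With peaks up to 1 kb apart joined into 1 site, the share of all start sites over 250 bp downstream was 10.7%, against 39.6% as reported. The median summit had 25 fragments at the shared starts and 29 at the others.

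**Figure D4:**
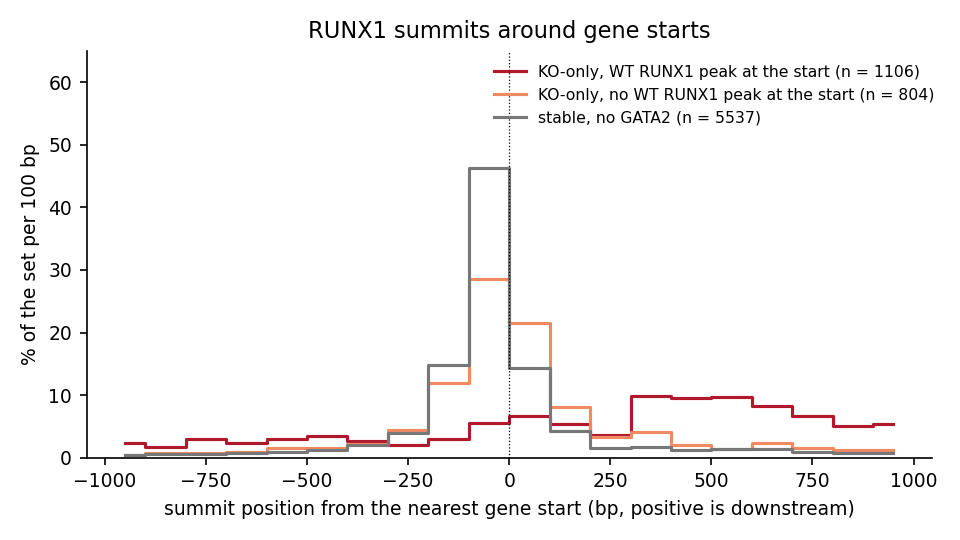
Position of RUNX1 summits relative to the nearest gene start (x axis, bp, positive downstream) in percent of each set per 100 bp (y axis). KO-only sites at starts with a WT RUNX1 peak are spread and lie mostly downstream (57.1% beyond 250 bp), while those at starts without one lie near the start (75.1% within 250 bp), as do stable sites (83.0%).

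Among named start sites, 5 of the 12 strongest lay at genes with no WT RUNX1 peak in them or within 5 kb, namely Ankrd40, Brap, Eda2r, Atp5l and Lysmd4. Eda2r, a receptor of the tumour necrosis factor family, had 33 fragments (22.7 to 46.3) over a background of 1.41, 38 bp upstream of its start and 757 kb from the nearest WT RUNX1 peak. Atp5l, a subunit of mitochondrial ATP synthase, had 53 over 5.52 at 616 bp upstream. Lysmd4 had 42 over 3.07 at 22 bp past its start.

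Of the other strongest start sites, 4 sat within 1 kb of a WT peak. Tspan4, a membrane tetraspanin, had 57 fragments (43.2 to 73.9) over 6.14 at 601 bp from a WT RUNX1 peak. Rbl1, the retinoblastoma-like pocket protein p107, had 56 over 6.14 at 129 bp from one, Cul3, a ubiquitin ligase scaffold, 54 over 6.14 at 127 bp, and Mpnd 58 over 7.79 at 129 bp. Gas2, a cytoskeletal protein gene, was not near one and had 48 over 3.07 at 616 bp downstream of a start and 8.23 kb from a WT peak.

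Elongating polymerase was measured apart from the rule. An S2P peak overlapped 35.9% (34.6 to 37.1) of the KO-only sites in KO cells and 37.0% (35.8 to 38.2) in WT cells, against 21.9% in KO and 21.6% in WT over all union sites. For stable RUNX1 sites without GATA2 the shares were 37.2% in KO and 38.2% in WT. S2P was alike in both genotypes at 90.1% of the KO-only sites, with a peak in both at 31.5% and in neither at 58.6%. It was present in KO only at 264 sites (4.40%, against 3.23% over all union sites) and in WT only at 331 sites (5.52%, against 2.98%). Stable RUNX1 sites without GATA2 were close to this, with S2P in KO only at 4.16% and in WT only at 5.16%. At gene starts shared with a WT RUNX1 peak, S2P overlapped 44.5% of the KO-only sites in KO and 47.0% in WT, and at starts without one 233 of 804 sites in KO and 241 of 804 in WT. The sites that carried RUNX1 in KO only therefore did not carry S2P more often in KO than in WT.

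Most genes with such a site at the start carried some S2P. S2P coverage is the percent of a gene's length under S2P peaks, taken for genes of 2 kb or longer. Of 660 genes with a KO-only site at a start and no WT RUNX1 peak there, 589 (89.2%) had S2P in at least 1 genotype, and over these 589 the median coverage was 24.3% in KO and 22.2% in WT. Of 955 genes with both at a start, 921 (96.4%) had S2P, and over these the medians were 45.3% in KO and 43.8% in WT. Of 4113 genes with a stable RUNX1 site without GATA2 at a start and no KO-only site, 3802 (92.4%) had S2P. Over these 3802 the medians were 35.8% in KO and 33.6% in WT. Of all 19300 protein-coding genes of this length, 9984 (51.7%) had S2P, with medians over these of 29.5% in KO and 27.0% in WT. Coverage was 10 points or more higher in KO at 36 of the 589 genes without a WT peak (6.11%) and at 54 of the 921 with one (5.86%), against 5.76% of the 9984 genes with S2P. It was 10 points or more lower at 20 of the 589 (3.40%) and 41 of the 921 (4.45%), against 3.90% of the 9984. These shares lie near those of all genes with S2P, in both directions.

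**Figure D5:**
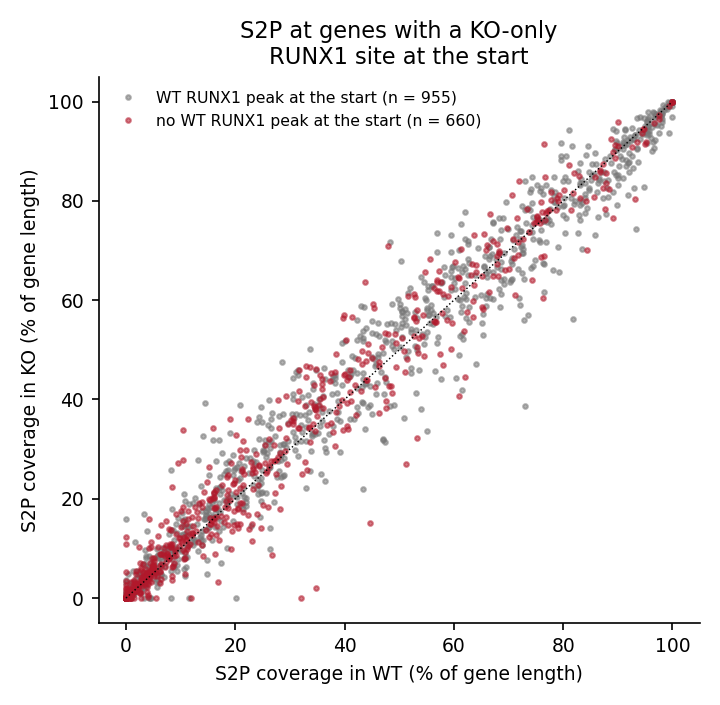
S2P coverage in KO (y axis) against WT (x axis), in percent of gene length, for genes with a KO-only RUNX1 site without GATA2 at a start; each point is a gene and the dotted line marks equal coverage. Both groups follow the line, with medians of 24.3% in KO and 22.2% in WT over the 589 of the 660 genes without a WT RUNX1 peak at the start that had any S2P.

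Ankrd40 had S2P over 44.6% of its length in KO and 33.0% in WT, and Brap over 39.4% in KO and 33.9% in WT. Tspan4 went the other way, with 66.1% in KO and 78.1% in WT. Mrps5 had 27.5% and 22.8%, Rbl1 65.8% and 59.4%, and Cul3 51.5% and 47.5%, each in KO and then WT. Eda2r had no S2P in either genotype. A single list per genotype gives no spread for these differences.

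A KO-only site without GATA2 lay in or within 5 kb of 4497 of 21883 protein-coding genes (20.6%). The share was 12.5% when peaks up to 500 bp apart were joined and 12.7% with RUNX1 lists of equal length. Of these genes, 70.3% held a single site, 393 held 3 or more, and 665 (14.8%) had no WT RUNX1 peak at all. The gene with most sites was Bcor, which encodes a corepressor that joins BCL6 and a Polycomb complex. Its 11 sites had 11 to 36 fragments (median 16.0), in a gene with 25 KO and 13 WT RUNX1 peaks. The strongest of them, at chrX:12081156-12081495, had 36 fragments (25.2 to 49.8) over 2.71 and lay 4.50 kb from a WT RUNX1 peak. S2P covered 9 of the 11 sites in KO and 10 in WT, and S2P coverage of the gene was 42.4% in KO and 43.1% in WT.

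Mtss1, a membrane-bending and actin-binding protein gene, held 10 sites of 13 to 33 fragments among 32 KO and 20 WT RUNX1 peaks, and 4 of the 10 lay within 1 kb of a WT peak. Runx1 itself held 8 sites of 13 to 24 fragments among 30 KO and 19 WT peaks. Its sites included one 45 bp past a gene start with 20 fragments and one 227 bp upstream with 24, both within 500 bp of a WT RUNX1 peak. S2P coverage of Runx1 was 89.0% in KO and 80.6% in WT. Fbxl17, Rhof, St7 and Tnrc18 held 7 sites each, of which Rhof and Tnrc18 are on chromosome 5.

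The gene lists are given by how many genes hold a site, beside 20.6% for all protein-coding genes. Long genes and genes with many RUNX1 peaks have more room for a site, and this was not adjusted for. Among erythroid genes 23 of 54 (42.6%, 29.2 to 56.8) held one, among stem and progenitor genes 16 of 38, among genes for RUNX factors and their partners 12 of 24 and among CHD remodelers 6 of 10. For other blood lineages the counts were 4 of 24 megakaryocyte genes (16.7%, 4.74 to 37.4), 2 of 19 mast cell genes (10.5%, 1.30 to 33.1) and 2 of 26 myeloid genes (7.69%, 0.946 to 25.1), whose intervals all hold the 20.6% of all genes. For lymphoid genes the count was 1 of 28 (3.57%, 0.0904 to 18.3). In the erythroid list 87.0% of genes had a KO RUNX1 peak of any kind, in the lymphoid list 32.1% and over all genes 52.7%. Of all genes with a KO RUNX1 peak, 39.0% held a site. Among such genes the counts were 23 of 47 erythroid, 16 of 22 stem and progenitor, 12 of 19 RUNX and partner and 6 of 8 CHD genes. They were 4 of 12 megakaryocyte, 2 of 11 mast cell, 2 of 7 myeloid and 1 of 9 lymphoid genes.

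In the erythroid list the strongest site was in Ldb1, the bridging factor that links GATA1 and TAL1 complexes and loops the globin enhancers. It had 51 fragments (38.0 to 67.1) over 10.7 and lay 201 bp from a WT RUNX1 peak, and S2P covered 31.8% of the gene in KO and 47.1% in WT. Zbtb7a, a repressor of fetal globin, had 28 over 3.36, and Xpo7, a nuclear export receptor needed for nuclear condensation in red cells, had 27 over 3.84. Car2, the red cell carbonic anhydrase, was the single erythroid gene with a site and no WT RUNX1 peak. In the stem and progenitor list Cbfa2t3, the corepressor ETO2, had 28 fragments over 2.81. Lyl1, a basic helix-loop-helix factor, had 34 over 5.63 at 1962 bp outside the gene. The Cbfa2t3 and Lyl1 sites lay 819 bp and 791 bp from a WT RUNX1 peak, and the Zbtb7a and Xpo7 sites 2.86 kb and 3.10 kb.

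Bmi1, a Polycomb protein that keeps stem cells dividing, was the single gene of its list with a site and no WT RUNX1 peak. Its stronger site had 20 fragments (12.2 to 30.9) over 2.67, 110 bp past the start, with an S2P peak in both genotypes. The lowest number for a WT call there was 10 fragments. S2P coverage of Bmi1 was 18.4% in KO and 25.9% in WT.

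Among genes of other lineages, Gfi1b, a repressor needed for red cells and megakaryocytes, had 38 fragments over 7.90. This site lay 1894 bp outside the gene and 40 bp from a WT RUNX1 peak. Itga2b, the platelet integrin alpha IIb, had 21 over 2.49. Spi1, the myeloid factor PU.1, had 68 (52.8 to 86.2) over 11.5 inside the gene, 18.3 kb from a WT peak. Cebpb, a C/EBP family factor, had 35 over 7.68 at 76 bp upstream of its start. A site 3 bp upstream of the Il18r1 start, near the mast cell receptor gene Il1rl1, had 39 over 5.37. Kit had 17 over 3.25 and Gata3, a lymphoid factor, had 14 over 2.30, both close to the median or below it.

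Among RUNX partners Kat6a, an acetyltransferase that works with RUNX1, had 32 fragments over 3.36 at 495 bp outside the gene. Prmt1, an arginine methyltransferase, had 40 over 6.91 at 1958 bp outside the gene, 54 bp past the start of Cpt1c. Among remodelers Chd3 had 40 (28.6 to 54.5) over 3.79, Chd4 37 over 6.14 and Chd2 31 over 4.76. Chd3 and Chd4 encode the motor subunits of the NuRD complex. Chd5 was the remodeler gene with a site and no WT RUNX1 peak.

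Genes of housekeeping groups nearly all had a KO RUNX1 peak, so the share to set them beside is the 39.0% of genes with a KO RUNX1 peak that held a KO-only site without GATA2. Of 81 cytosolic ribosomal protein genes, 45 did (55.6%, 44.1 to 66.6), although they are short (median 3.17 kb, against 17.2 kb for all genes), and 79 of the 81 had a KO RUNX1 peak. Among genes with a KO RUNX1 peak, the counts were 19 of 44 for translation initiation factors, 25 of 63 for cell cycle and replication genes, 14 of 37 for proteasome subunits and 19 of 53 for splicing factors. They were 24 of 77 for mitochondrial ribosomal proteins and 23 of 76 for polymerase, Mediator and TFIID subunits. Over all genes of a list, solute carriers, at 83 of 369, and Zfp-named zinc finger genes, at 95 of 397, were near the share of all genes, and 5 of 1110 olfactory receptor genes held a site.

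Rpl6, a protein of the large ribosomal subunit, had 58 fragments over 9.09 at 133 bp past its start and no WT RUNX1 peak. Rpl5, Rpl37a and Rpl32l also had a site and no WT peak. Eif4h, a helper of the initiation helicase, had 54 over 11.5 at 42 bp past its start with no WT peak, and Eif4g3, a scaffold of the cap-binding complex, had 46 over 4.76. Mrpl44 and Mrps23, mitochondrial ribosomal proteins, had 65 over 12.3 and 57 over 10.7 at their starts.

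In the cell cycle list, Cdkn1a, which encodes the inhibitor p21, had 46 fragments (33.7 to 61.4) over 8.44 at 71 bp upstream of its start, 2.43 kb from a WT RUNX1 peak, and S2P coverage of 69.9% in KO and 68.3% in WT. The retinoblastoma gene Rb1 had 6 sites, the strongest with 22 over 2.06, and E2f2, an E2F factor of terminal erythroid divisions, had 4, the strongest with 37 over 6.91. S2P coverage of Rb1 was 56.0% in KO and 54.6% in WT, and that of E2f2 62.4% and 61.4%. Psmb1 of the proteasome had 31 over 3.90, Srsf1, a splicing factor, 31 over 4.44, and Taf5l, a subunit of histone acetyltransferase complexes, 37 over 4.61.

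The cell type was checked by S2P over marker genes. Coverage in KO and then WT was 64.6% and 65.9% for Gata1, 83.3% and 75.2% for Klf1, 98.6% and 99.2% for Tfrc and 93.2% and 95.1% for Kit. It was 93.5% and 93.1% for Zfpm1, 61.1% and 63.2% for Epor and 22.6% and 18.5% for Alas2. Alas2 lay below the medians of all genes of 2 kb or longer with S2P, 29.5% in KO and 27.0% in WT. Slc4a1, a late erythroid membrane gene, was at 0 in both. The lymphoid, myeloid and neural markers were at 0, except Csf1r at 10.9% and 11.6%. S2P coverage is not an RNA level, and the coverage of Gata1 says nothing of whether its product is made.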

How the data were processed

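The data are 6 peak lists, 4 of single RUNX1 or GATA2 libraries and 2 for S2P, whose way of combining 2 replicates is not stated. Per the submitters' processing notes, Bowtie2 2.2.1 and MACS2 2.1.0 were used with GRCm38 (mm10), with roles, settings and the control used not given in the sources used here. The deposited lists give the authors' values per peak: a score, the fold enrichment (a ratio over local background), −log10 p and −log10 q. Peak names carry a q limit of 0.05.

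Fragments at a RUNX1 summit were recovered from the deposited fold and −log10 p under the caller's Poisson model. All values in both RUNX1 lists came out whole within 0.005 of −log10 p, against 3.29% (KO) and 3.33% (WT) at a deliberately wrong scale of 0.93. The step and the site merging were tested on simulated data. Total library depth is not in the lists. Background floors of 1.39 (KO) and 1.37 (WT) fragments gave the relative depth.

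Gene starts and promoter sequence came from RefSeq (GRCm38.p6, 21262 starts of 17491 of the 21883 protein-coding genes, none on chromosome 18). Shares carry exact Clopper-Pearson intervals and single summits exact Poisson intervals, both at 95%. Sites and gene lists were chosen with earlier results of these data known. Named genes are the 12 strongest sites at named genes, the 12 strongest at gene starts, the genes with most sites and the strongest 3 of each list (a selection is printed). Python 3.11.15, pandas 2.3.3, scipy 1.17.1 and matplotlib 3.10.9 were used.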

Additional observations from a re-analysis of the deposited data

How the results depend on the processing

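No paired analysis was possible because each factor has 1 library per genotype and the S2P lists join their replicates. The 6001 sites became 3917 when KO RUNX1 peaks needed a −log10 q of 5, 3278 when peaks up to 500 bp apart were joined, 2454 when joined up to 1 kb, and 3153 with the KO RUNX1 list shortened to the length of the WT list. Under the first, second and last of these, the share at gene starts was 34.2%, 21.3% and 35.1%, the share with S2P in KO 34.6%, 31.7% and 34.1%, and the share of genes with a site 15.1%, 12.5% and 12.7%. Joining at 500 bp gave 59.6% of sites in genes. Windows of 500 bp and 2 kb gave start shares of 22.0% and 39.1%, and gene bodies alone gave 13.8% of genes. The share of start sites over 250 bp downstream (39.6%) was 32.8% with −log10 q of 5 in all lists, 35.7% with it in the KO RUNX1 list alone, 21.8% and 10.7% with joining up to 500 bp and 1 kb, and 32.7% with equal lists. Among sites over 1 kb from a WT RUNX1 peak, a choice made after seeing the data as was the downstream share, the values were 21.7% at starts, 32.3% with S2P in KO, 59.3% in genes and 15.6% downstream. The other 17 of 43 alternative values, among them all without chromosome 5, stayed within the interval of the value reported or within 1.5 times its count. Joining removes sites beside other peaks by construction, and with 1 library per list no alternative shows how a second library would move the calls.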

Other observations

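Summits of the KO-only sites without GATA2 lay within 1 kb of 27 of 1005 microRNA hairpins on record. Some of these hairpins share the same site. No like count is given for other RUNX1 peaks, so the number cannot be called high or low. The strongest of these sites was 65 bp from Mir5122, with 46 KO RUNX1 fragments. The others named here were chosen after their values were seen. A site of 14 fragments lay 89 bp from Mir24-2, in the cluster it forms with Mir23a and Mir27a, and a site of 16 fragments lay 225 bp from Mir212 and 519 bp from Mir132. A site of 14 fragments lay 663 bp from Mir7-1. Except for Mir5122, each of these named sites was weaker than the median of all the KO-only sites, which is 22 fragments.

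Of the 1704 starts nearest to such a site, 58.8% held a WT RUNX1 peak within 1 kb, 29.9% a KO GATA2 peak and 23.2% a WT GATA2 peak, against 37.9%, 18.6% and 16.0% of all 21262 starts. The 5179 starts nearest to a stable RUNX1 site without GATA2 held a KO GATA2 peak in 26.0% and a WT GATA2 peak in 21.7%, close to the starts with a KO-only site. An S2P peak lay within 1 kb of 55.3% of these 1704 starts in KO and 57.2% in WT, of 51.8% in KO and 53.2% in WT of the starts nearest to a stable site, and of 24.9% in KO and 25.5% in WT of all starts. The GATA2 peaks counted here lie beside the KO-only sites and do not overlap them, which the way the sites were chosen fixes.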
